A study of Mus musculus with 4 samples.

Results

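The genes described here build, fold and clear proteins in the endoplasmic reticulum (ER) or sense its load: 33 genes named by role as chaperones, disulfide isomerases, degradation factors, translocon subunits and stress sensors, of 19751 genes with a probe on the array. They were measured in alveolar macrophages, the phagocytes that live in the lung airspaces, from Bach2KO mice, which lack the transcription repressor Bach2, and from wild-type (WT) mice. Cells were sorted by flow cytometry and pooled from Bach2KO mice, 3 by the design text and 4 by the treatment protocol, and from 8 WT mice. How the Bach2 allele was made, and the strain, sex and age of the mice, are not given in the sources used here. Each genotype gave 1 RNA sample, which was divided before amplification and labelling and hybridised to 2 one-colour arrays. The 2 arrays of a genotype therefore repeat the labelling and not the animals, so the comparison has no biological replicate and carries no p-value. Bach2 itself had log2 signals, relative to the 75th percentile of each array, of -5.16 and -8.13 in Bach2KO, against -6.32 and -6.28 in WT. Its probe stood well above background on Bach2KO array 1 and WT array 2 only, and whether it lies in the deleted part is not known here, so it gives no check of the labels.

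Proteins destined for secretion, the cell surface or lysosomes enter the ER through the Sec61 channel and are folded there by chaperones and disulfide isomerases. Molecules that fail to fold are drawn back into the cytosol and degraded, a route known as ER-associated degradation. When unfolded proteins accumulate, the sensors Ire1 (gene Ern1), Atf6 and Perk (gene Eif2ak3) start the unfolded protein response: Ire1 splices the Xbp1 transcript so that it encodes an active transcription factor, Atf6 is cleaved into one, and Perk slows translation. Chaperone genes are classic targets of Atf6 and Xbp1. In macrophages the same machinery makes the receptors and lysosomal enzymes used to take up and digest surfactant and particles.

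Atf6 and its partner NF-Y are known to bind the ER stress response element (ERSE), which reads CCAAT and CCACG with 9 free bases between them. The element was searched on both strands from 250 bases before to 50 after each annotated start, in RefSeq promoters of build GRCm38.p6, where 28 of the 33 genes had an entry. It was found for 9 of these 28 genes, against 37 of all 27025 genes with an entry, members included. By promoter this is 0.119% of 32851 promoters (39 promoters). The members holding it were Hspa5, Hsp90b1, Dnajc3, Pdia6, Calr, Canx, Syvn1, Derl3 and Creld2. The stretches below show the element with 20 bases on either side, 5′ to 3′ on the strand of the gene, for the 3 holders with the largest differences between the genotypes and for Syvn1, Dnajc3 and Canx, whose differences were smaller. Capitals mark the outer parts of the element, which read CGTGG and ATTGG where it lies on the opposite strand.
Derl3: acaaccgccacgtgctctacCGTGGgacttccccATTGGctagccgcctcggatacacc
Hspa5: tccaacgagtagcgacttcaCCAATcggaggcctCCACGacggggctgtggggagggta
Creld2: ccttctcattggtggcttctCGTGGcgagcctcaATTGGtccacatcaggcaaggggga
Syvn1: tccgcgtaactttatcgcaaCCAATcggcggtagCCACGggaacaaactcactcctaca
Dnajc3: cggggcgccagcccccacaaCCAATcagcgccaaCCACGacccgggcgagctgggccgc
Canx: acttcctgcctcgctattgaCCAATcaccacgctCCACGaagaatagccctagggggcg
The stretches lie at chr10:75893222-75893280 (Derl3, + strand), chr2:34772005-34772063 (Hspa5, + strand), chr15:88819500-88819558 (Creld2, + strand), chr19:6046512-6046570 (Syvn1, + strand), chr14:118937807-118937865 (Dnajc3, + strand) and chr11:50325780-50325838 (Canx, - strand), all in GRCm38.p6. The element began 156 bases before the start of Derl3, 65 before that of Hspa5 and 44 before that of Syvn1. The related element ERSE-II, ATTGG and CCACG with 1 free base between them, was found for Herpud1 and Dnajb11, against 12 of all 27025 genes (0.0365% of promoters). The letters TGACGTGG, bound by Xbp1 and overlapping the CCACG end of ERSE, were found for none of the 28, against 193 of all 27025 genes (0.676% of promoters).

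All 33 genes had at least 1 probe, 43 probes in all, and 32 genes were measured, meaning that both arrays of Bach2KO, of WT or of both had a probe well above background. Each of these 32 was well above background on all 4 arrays. The exception was Dnajb11, which encodes the BiP co-chaperone ERdj3: its only probe passed background on WT array 1 alone, and no value is given for it. Signals are written as log2 relative to the 75th percentile of their own array, so that differences between genotypes can be read for a gene but levels of different genes cannot be set against each other. A gene counts as called higher or lower if it differed by at least 2-fold, or 1 on the log2 scale, in that direction in each of the 4 pairs of a Bach2KO with a WT array. Over 15122 measured genes the call was met by 1266 higher (8.37%) and 892 lower (5.9%).

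Most genes of ER folding and degradation were higher in Bach2KO by modest amounts. Both Bach2KO arrays lay above both WT arrays for 30 of 32 measured members and below them for 2, whereas over all measured genes 45.6% lay above and 39.5% below in the same way. With median scaling 24 members lay above and 2 below, against 36.1% of all genes above, and with quantile normalization 27 above and 2 below, against 41.4%. With spike-in scaling 10 lay above and 17 below, against 11.9% of all genes above. The shares of all genes below were not computed for these other scalings, so the counts below are not a result about the members. In bulk RNA, fewer cells of a type and less RNA per cell cannot be told apart. The call of 2-fold was met by 5 members, 15.6% of those measured, all higher: Derl3, Hspa5, Creld2, Sdf2l1 and Manf. At 1.5-fold in each array pair 15 members were higher, against 14.8% of all genes. The median difference was 0.55 over the members (1.46-fold) and 0.06 over all measured genes. Arrays of the same RNA differed for any member by at most 0.17 in Bach2KO and 0.40 in WT. These directions rest on the scaling of the arrays: scaled to spike-in RNA, all differences were lower by 0.72, the median over all genes was -0.66, and 12 members were above 0 and 20 below. The plot of differences by role shows the order within each class.

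**Figure D1:**
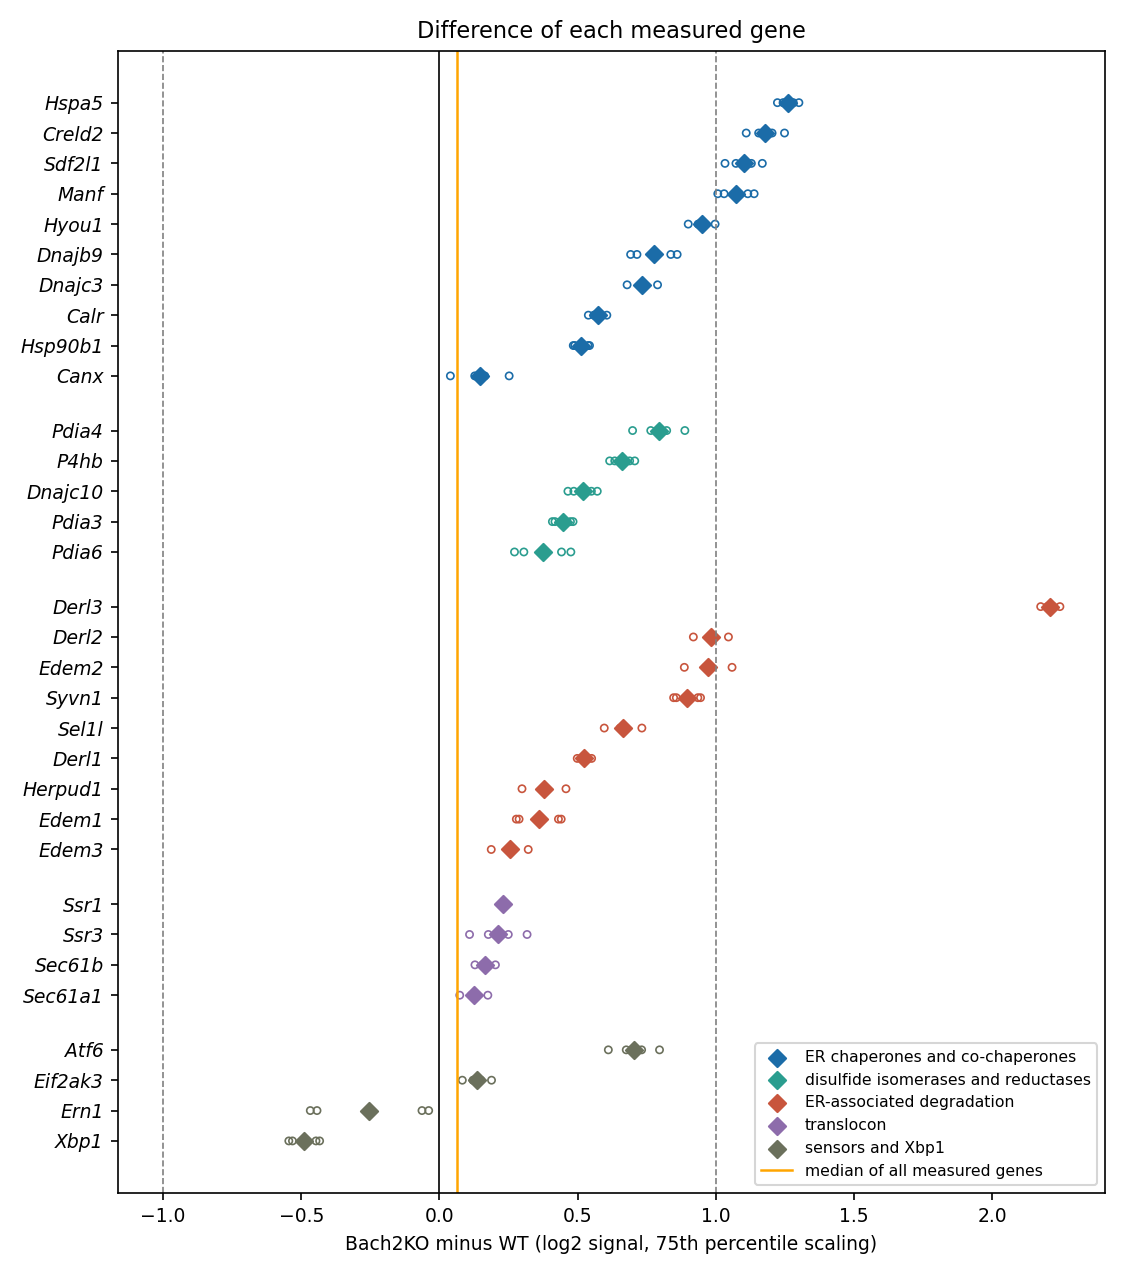
Difference in log2 signal, Bach2KO minus WT, for the 32 measured genes grouped by role. Diamonds are differences of array means, open circles the 4 array pairs, dashed lines mark 2-fold, and the orange line is the median of all measured genes at 0.06. Derl3 stands at 2.21, the chaperone genes run from 0.15 to 1.26, and Xbp1 lies at -0.49.

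Among the ER chaperones and their partners, 4 of 10 measured genes were called higher, against 8.37% of all genes, and none lower. The count was 2 with median scaling (7.17% of all genes), 2 with normexp (5.96%), 3 with quantile normalization (7.69%) and 0 with spike-in scaling (4.15%). The median difference of the class was 0.86 (0.14 with spike-in scaling). Hspa5 encodes BiP, the ER member of the Hsp70 family, which also keeps the stress sensors inactive when it is free. Its log2 signals were 6.56 and 6.51 on the Bach2KO arrays, against 5.28 and 5.26 on the WT arrays, a 2.40-fold higher signal. Both Bach2KO arrays lay clear of the WT arrays, and the difference of 1.26 exceeded that of 92.3% of measured genes. With quantile normalization the difference of Hspa5 was 1.04 and the 2-fold call was not met in every array pair. Creld2, a disulfide isomerase-like protein of the ER that can be secreted, had signals of 4.43 and 4.48 in Bach2KO, against 3.32 and 3.23 in WT, which is 2.26-fold higher. Sdf2l1 encodes a partner of BiP and ERdj3 that keeps clients soluble. It had signals of 2.87 and 2.97 in Bach2KO, against 1.80 and 1.84 in WT (2.14-fold). Manf, which encodes a small protein that binds BiP and can leave the cell, had 2.95 and 3.05 in Bach2KO, against 1.94 and 1.92 in WT (2.10-fold). Sdf2l1 and Manf sit close to the threshold: with median scaling their differences were 0.97 and 0.94, and neither was called with normexp background correction, and no chaperone gene kept its call with spike-in scaling.

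The other chaperone genes differed by less than 2-fold in at least 1 array pair. Hyou1 encodes Grp170, which exchanges the nucleotide of BiP, and had signals of -1.55 and -1.61 in Bach2KO, against -2.55 and -2.51 in WT. Its difference of 0.95, with array pairs between 0.90 and 0.998, fell just short of the call. Dnajb9 and Dnajc3 encode J-domain co-chaperones of BiP, ERdj4 and p58IPK. Dnajb9 had signals of 2.84 and 2.81 in Bach2KO, against 1.98 and 2.12 in WT, and Dnajc3 had 2.13 and 2.09 in Bach2KO, against 1.41 and 1.34 in WT. The differences were 0.78 and 0.73. Hsp90b1, the Hsp90 of the ER (Grp94), had 5.73 and 5.74 in Bach2KO, against 5.19 and 5.25 in WT, a difference of 0.51. The lectin chaperones, which hold glycoproteins through their sugar chains, differed from each other: soluble calreticulin (Calr) had a difference of 0.57, with signals of 4.82 and 4.86 in Bach2KO and 4.26 and 4.28 in WT, and membrane-bound calnexin (Canx) one of 0.15, with 4.48 and 4.60 in Bach2KO and 4.35 and 4.44 in WT. For Canx the lowest array pair differed by 0.04, and its rank, above 56.0% of measured genes, was close to the middle. No test of the difference between Calr and Canx is possible with 1 RNA sample per genotype.

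The disulfide isomerases were higher by similar amounts and none was called, with a median difference of 0.52 over the 5 genes (-0.20 with spike-in scaling). Pdia4 (ERp72) had signals of 1.57 and 1.69 in Bach2KO, against 0.87 and 0.80 in WT, a difference of 0.79 and the largest of the class. P4hb, the founding protein disulfide isomerase, had 4.13 and 4.11 in Bach2KO, against 3.42 and 3.49 in WT (0.66). Dnajc10, a reductase that opens disulfide bonds ahead of degradation, had 1.94 and 1.85 in Bach2KO, against 1.39 and 1.37 in WT (0.52). For each of these 3 genes the genotypes were further apart than the arrays of 1 RNA. Pdia3 (ERp57), the isomerase that works with calreticulin and calnexin, differed by 0.45 and Pdia6 (P5) by 0.37. The 2 Bach2KO arrays of Pdia6 were 6.22 and 6.05, against 5.74 and 5.77 in WT, so the arrays of 1 RNA were separated by 0.17, the widest such gap of any member in Bach2KO. All 5 lay above the median of all genes.

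In ER-associated degradation 1 of 9 genes was called, 11.1% against 8.37% of all genes, so this count is near that of all genes. By their brightest probes all 9 were higher on both Bach2KO arrays, as were 45.6% of all genes. The median difference of the class was 0.66 (-0.05 with spike-in scaling). Derl3 encodes a derlin, a membrane protein that helps move misfolded proteins out of the ER, and is best known from secretory cells. Its signals were -0.52 and -0.56 in Bach2KO, against -2.74 and -2.76 in WT. This 4.63-fold higher signal was the largest difference of any member, exceeded that of 96.3% of measured genes, and was the only call of a member that was also met at 3-fold and with spike-in scaling, where it was 1.49. Derl2 had signals of 5.11 and 5.17 in Bach2KO, against 4.19 and 4.13 in WT, a difference of 0.98 that reached 2-fold in some array pairs (0.92 to 1.05) and not in others. Derl1 differed by 0.52 on its brightest probe, with 3.43 and 3.40 in Bach2KO and 2.90 and 2.88 in WT, and by -0.25 on its other probe. By their brightest probes the derlin genes thus stood at 4.63-fold, 1.98-fold and 1.44-fold.

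The ubiquitin ligase of this route, Hrd1, is encoded by Syvn1, which had 4.48 and 4.39 in Bach2KO, against 3.53 and 3.54 in WT (0.90). Its membrane partner Sel1l had 1.66 and 1.71 in Bach2KO, against 0.98 and 1.06 in WT (0.66). Herpud1, a scaffold of the same complex and the holder of ERSE-II, had 3.52 and 3.44 in Bach2KO, against 3.06 and 3.15 in WT (0.38). The Edem genes encode proteins that trim mannose from glycoproteins to mark them for degradation, and they were unequal. Edem2 had 0.08 and 0.01 in Bach2KO, against -0.97 and -0.88 in WT, a difference of 0.97 with array pairs from 0.89 to 1.06. Edem1 differed by 0.36 and Edem3 by 0.25. Edem1 and Edem3 were thereby near the lower end of the class and Edem2 near the 2-fold threshold.

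On their brightest probes the translocon genes differed little. Sec61a1 encodes the channel itself and had signals of 4.57 and 4.51 in Bach2KO, against 4.40 and 4.44 in WT, a difference of 0.12 that was -0.01 with median scaling. Sec61b, a small subunit, had 5.11 and 5.14 in Bach2KO, against 4.98 and 4.94 in WT (0.17). Ssr1 and Ssr3, subunits of the translocon-associated protein complex, differed by 0.23 and 0.21. Their dimmer probes gave larger differences, 0.48 and 0.51 for Ssr1 and 0.80 for Ssr3. With the mean of a gene's probes the class median was 0.30. The median of 0.19 over these 4 genes by their brightest probes compares with 0.06 over all measured genes, and no translocon gene was called with any scaling. With spike-in scaling the class had a median of -0.53.

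The sensors and Xbp1 differed in both directions, and none of the 4 genes met the call. Atf6 had signals of -0.93 and -0.81 in Bach2KO, against -1.55 and -1.61 in WT, a difference of 0.70 (1.63-fold). Eif2ak3, which encodes Perk, had 0.66 and 0.70 in Bach2KO, against 0.58 and 0.51 in WT (0.14). Xbp1 had 5.43 and 5.45 in Bach2KO, against 5.98 and 5.88 in WT. The difference of -0.49 is a 1.40-fold lower signal, in which both Bach2KO arrays lay below both WT arrays. Only 18.7% of measured genes had a smaller value. With spike-in scaling the difference was -1.21 and Xbp1 was called lower, as were 21.0% of all genes. Ern1 had -0.85 and -0.88 in Bach2KO, against -0.41 and -0.81 in WT. Here WT array 1 stood apart from WT array 2 by 0.40, more than the genotypes differed (-0.25), and the difference was -0.05 without WT array 1. Probe sequences were not used here, so whether the Xbp1 probe reports the spliced form, the unspliced form or both is not known. The plot of single arrays shows the called members beside Hsp90b1, Xbp1 and Ern1.

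**Figure D2:**
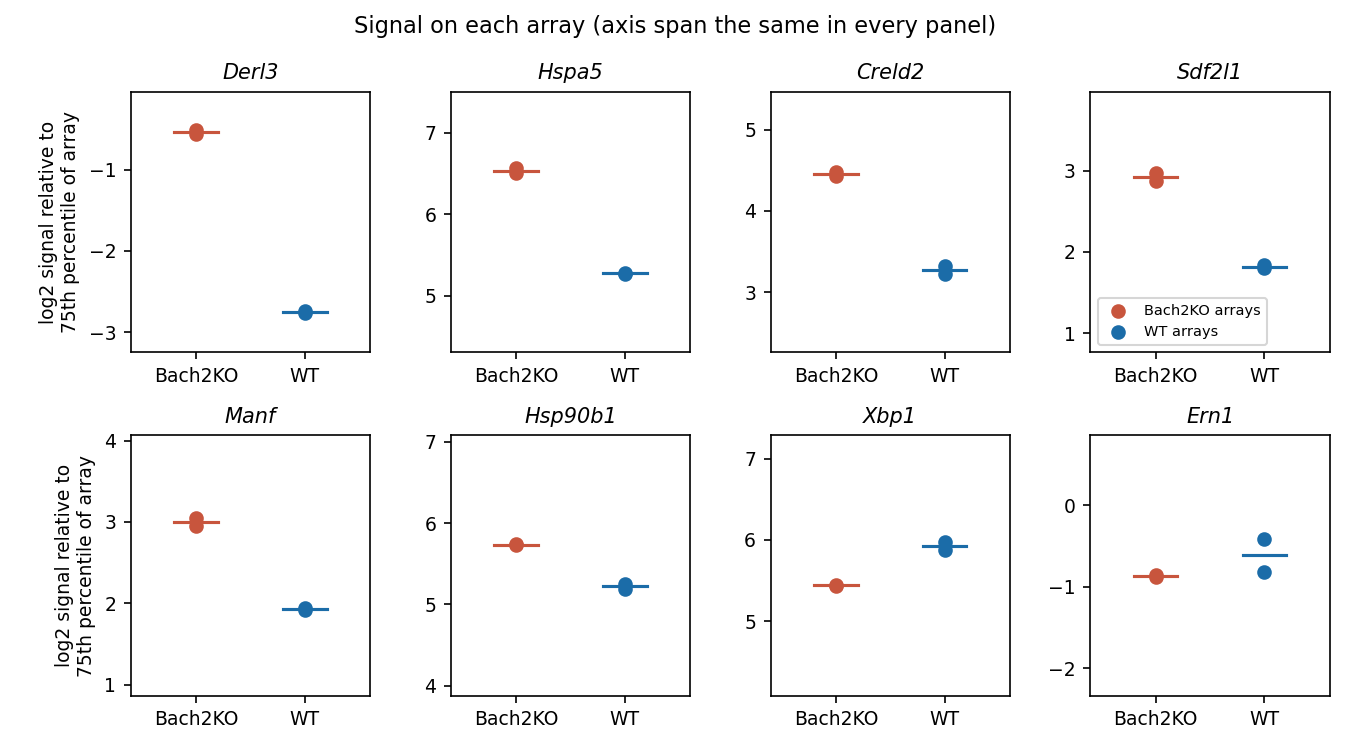
Log2 signal relative to the 75th percentile on each array for 8 members, with Bach2KO arrays at the left and WT arrays at the right of each panel. Lines are the means of 2 arrays of 1 RNA sample, and each axis spans the same range. Derl3 shows the widest gap between the genotypes, Xbp1 is lower in Bach2KO, and the 2 WT arrays of Ern1 lie at -0.41 and -0.81.

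Several members were measured by more than 1 probe, and the brightest represented each gene. This concerned 8 genes. Their other probes gave the same direction for 7 of these: Derl2 differed by 0.98 on its brightest probe and by 0.78 and 0.35 on the others, Dnajb9 by 0.78 and 0.89, Dnajc10 by 0.52 and 0.47, Pdia6 by 0.37 and 0.57, and Sec61b by 0.17 and 0.21. For the translocon-associated genes the dimmer probes gave larger differences, 0.48 and 0.51 in place of 0.23 for Ssr1 and 0.80 in place of 0.21 for Ssr3. Derl1 was the exception. Its brightest probe differed by 0.52 and its other probe by -0.25, with signals of 1.95 and 1.94 in Bach2KO against 2.16 and 2.24 in WT, so the direction of Derl1 depends on the probe. Each of the 5 called genes had 1 probe.

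Members with an ERSE in the promoter window differed by 0.15 to 2.21, with a median of 0.73 over 9 genes, of which 3 were called. Over all measured genes 8.37% were called higher and 5.9% lower. The 18 measured members with a promoter entry and no ERSE had a median of 0.41, a range of -0.49 to 1.10 and 1 call, Sdf2l1. The ranges overlap for the most part, and holders of the element lay at both ends: Derl3, Hspa5 and Creld2 were the members with the largest differences, and Canx was among the smallest. Outside the members, 11 measured genes held the element. None of these was called higher and 1, the adenylyl cyclase gene Adcy3, was called lower, with a median difference of 0.37. These include Ero1b, an oxidase that recharges the disulfide isomerases, at 0.81, and Alg12, a mannosyltransferase of the ER, at 0.43. Both genes were picked out after their values were seen. The presence of the letters is a description of the window and not a measurement of binding.

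**Figure D3:**
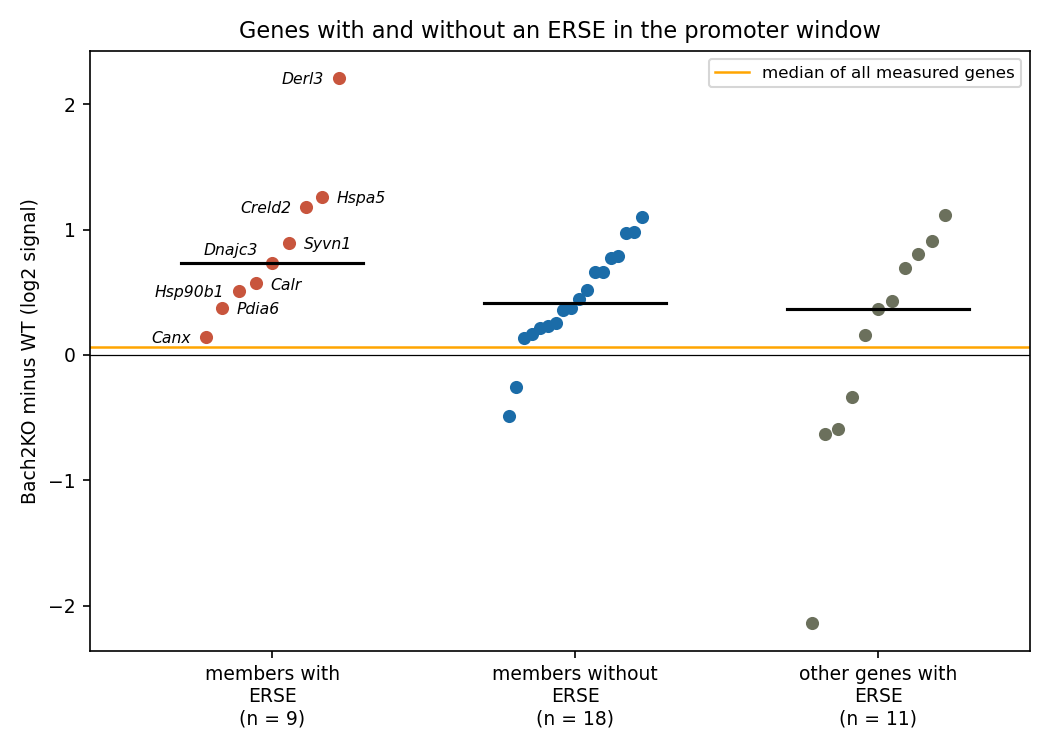
Difference in log2 signal, Bach2KO minus WT, for measured members with an ERSE in the promoter window (n = 9), measured members with a promoter entry and without one (n = 18), and other measured genes with one (n = 11). Points are genes in ascending order, black bars medians (0.73, 0.41 and 0.37) and the orange line the median of all measured genes.

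Genes of the same pathway outside the 33 were grouped in 6 lists. Beside their counts, 8.37% of all measured genes were called higher and 5.9% lower. In the Perk arm and the wider integrated stress response, 6 of 16 genes were called higher and none lower, with a median of 0.17. Trib3, a pseudokinase induced late in ER stress, was 7.30-fold higher and Asns, asparagine synthetase, 5.68-fold. Ppp1r15a, the phosphatase subunit that reverses the block on translation, was 4.61-fold higher and Chac1, which degrades glutathione, 4.49-fold. These 4 were also called with spike-in scaling, and Ddit3 and Atf3 were not. The list's median then was -0.55. Atf4, the transcription factor of this arm, had signals of 5.95 and 5.89 in Bach2KO, against 5.45 and 5.47 in WT, a difference of 0.45 that met no call.

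In the other 5 lists the share called higher was near or below the 8.37% of all genes, except for the regulators, where it was above. Of 38 further folding enzymes 3 were called higher and none lower (median 0.31). Fkbp11, a prolyl isomerase of secretory cells, was 22.4-fold higher, and Ppic, a cyclophilin, at least 13.8-fold higher, a bound because its WT signals did not pass background. The fold of Fkbp11 is not a bound, but its WT signals of -6.23 and -6.14 were near background, so its size is uncertain. On WT array 1 it lay below the dimmest signal that passed background there (-6.14). Of 32 further degradation genes 2 were higher and none lower (median 0.15), Man1a, a mannosidase, by 22.9-fold and Svip, an inhibitor of the pathway, by 5.53-fold. The WT signals of Man1a, -5.63 and -6.06, were also close to the dimmest that passed background on those arrays, -6.14 and -6.56. Among 34 genes of translocation, signal peptidase and glycan transfer, Spcs2, a signal peptidase subunit, was called at 2.78-fold and none was lower (median 0.36). Among 23 regulators of the response 3 were higher and none lower (median -0.003): Wfs1, which encodes an ER membrane protein, by 5.43-fold, and the Atf6-like factors Creb3l2 and Creb3l3 by 2.86-fold and 2.68-fold, a call that Creb3l3 did not meet with normexp background correction. Of 29 genes of ER export and retrieval 2 were higher and 1 lower (median 0.11). Kdelr3, a receptor that returns escaped chaperones to the ER, was at least 2.59-fold higher, Sec24d, a coat subunit, 2.22-fold higher and Sec16b 4.09-fold lower, calls that were not met with normexp background correction. With spike-in scaling the medians of these 5 lists lay between -0.72 and -0.36 and the counts changed. Over all measured genes 4.15% were then called higher and 21.0% lower. Folding enzymes then had 2 higher and 3 lower, and degradation genes 2 higher (Man1a and Svip) and 5 lower (Erlec1, Ubxn4, Ngly1, Tmub1 and Erlin1). Regulators had 1 higher (Wfs1) and 1 lower (Nfyb), export and retrieval 0 higher and 1 lower (Sec16b), and translocation 0 either way. The genes that appear here as lower were named after their values were seen.

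Markers of cell types differed along with these genes. Beside the counts of each list, 8.37% of all measured genes were called higher and 5.9% lower. The sums of linear signal given here are weighted to the brightest genes of each list. They add signals of different genes, whose levels cannot be set against each other, so they are not amounts of a cell type. Of 15 alveolar macrophage markers, all measured, 6 were lower and 2 higher, with summed linear signals of 1252 and 1208 times the 75th percentile in Bach2KO and 1361 and 1233 times in WT. Of 14 monocyte and interstitial macrophage markers 9 were higher and 1 lower, with sums of 17.2 and 17.6 in Bach2KO against 7.03 and 7.07 in WT. Derl3 and Fkbp11 are known from plasma cells. Of 9 measured plasma and B cell markers 3 were higher and 1 lower, with sums of 1.16 and 1.22 in Bach2KO against 1.69 and 1.54 in WT. Prdm1, the brightest of them in WT at log2 0.39 and 0.24, makes up most of the WT sums. Each of the others had a higher mean in Bach2KO, and the list's median difference was 0.52. Sdc1, at background in WT, was at least 8.92-fold higher and Prdm1 4.41-fold lower, while Jchain, Tnfrsf17 and Ms4a1 were not measured in either genotype by the rule above. Of 10 neutrophil markers 3 were higher and 1 lower, with sums of 55.7 and 56.0 in Bach2KO against 45.8 and 44.5 in WT. Of 12 T and NK cell markers 4 were higher and 1 lower, with sums of 29.0 and 28.4 in Bach2KO against 66.4 and 66.5 in WT. Cd2, at log2 5.76 and 5.77 in WT, makes up most of the WT sums and was 3.81-fold lower. Each of the others had a higher mean in Bach2KO, and the list's median difference was 0.69. Of 6 endothelial markers 3 were higher and none lower, with sums of 29.7 and 29.8 in Bach2KO against 14.2 and 15.2 in WT. Of 11 epithelial markers 2 were higher and 2 lower, with sums of 18.95 and 19.7 in Bach2KO against 60.5 and 61.8 in WT. Krt19, 3.98-fold lower, makes up most of these sums, and Epcam, at background in Bach2KO, was at least 98.1-fold lower. Scgb1a1 was 3.05-fold higher and Sftpb, at background in WT, at least 2.18-fold higher. The list's median difference was 0.22. Of 5 dendritic cell markers none was called, with sums of 36.6 and 36.6 in Bach2KO against 57.4 and 49.5 in WT, most of which is Siglech. Of 3 eosinophil markers none was called, with sums of 0.078 and 0.17 in Bach2KO against 0.11 and 0.057 in WT. These counts depend on the scaling. With spike-in scaling alveolar macrophage markers had 0 higher and 7 lower, monocyte markers 6 and 2, and plasma and B cell markers 1 and 1. Neutrophil markers had 3 and 1, T and NK cell markers 1 and 1, and endothelial markers 1 and 0. Epithelial and dendritic cell markers each had 0 higher and 2 lower, and no eosinophil marker was called. Over all measured genes 4.15% were then higher and 21.0% lower. The part of these cells in the results was not tested.

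The sign of the members' median depended on the scaling. The 75th percentile, median scaling, spike-in scaling and the deposited table differ by 1 constant per array, so that members minus all genes is 0.49 in each by construction. Quantile normalization and normexp could change it, and gave 0.54 and 0.44. The median of the members was 0.41 with median scaling, 0.53 with quantile normalization, 0.57 with normexp background correction and 0.58 in the deposited value table, where that of all genes was -0.07, -0.01, 0.12 and 0.10. With spike-in scaling it was -0.17, against -0.66 over all genes. Xbp1 and Ern1 were the members with the lowest differences under each of these settings, and Derl3 was the highest.

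**Figure D4:**
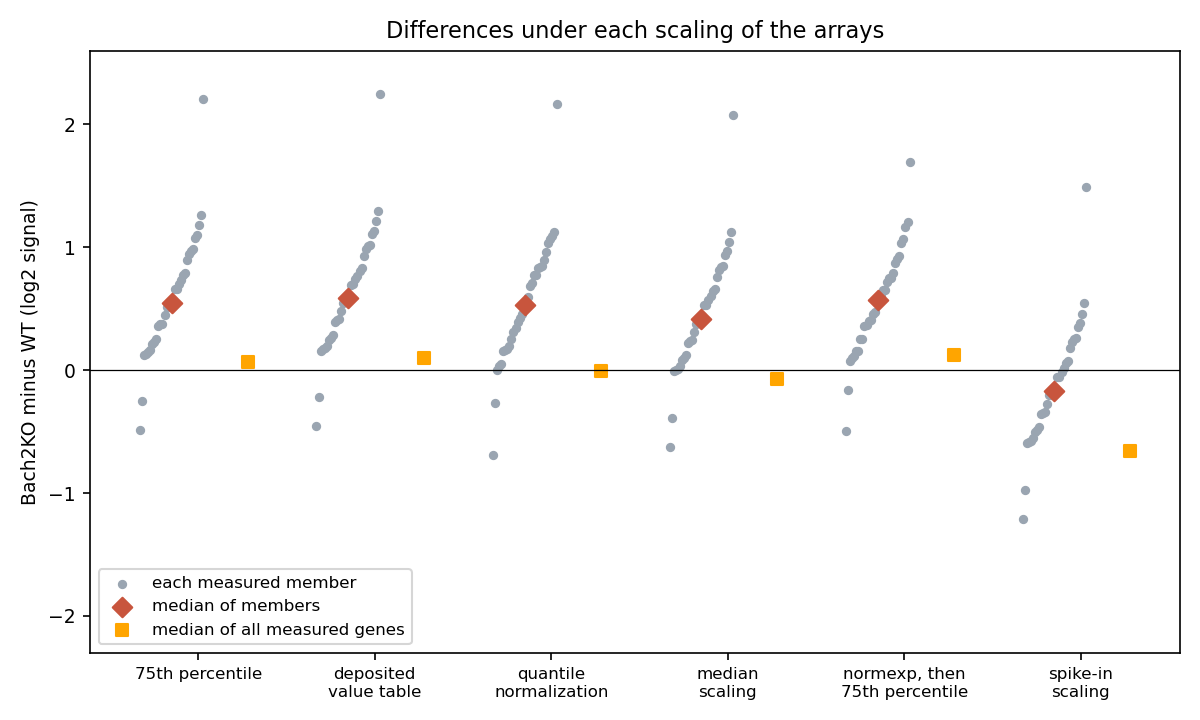
Difference in log2 signal, Bach2KO minus WT, of the 32 measured members (grey points), their median (red diamonds) and the median of all measured genes (orange squares) under 6 scalings of the arrays. The median of the members was 0.55 against 0.06 with the 75th percentile and -0.17 against -0.66 with spike-in scaling.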

How the data were processed

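RNA from Bach2KO and WT alveolar macrophages was hybridised to 4 one-colour Agilent arrays, 2 per genotype, on 1 slide. Each genotype held its own positions there, and effects of position and of genotype cannot be separated. The scanner files hold linear intensity that the authors obtained with Agilent Feature Extraction, version 10.7.3.1 per the file headers and 9.1 per the submitters' processing notes. The deposited value table holds log2 values, which equal the log2 processed signal minus a constant per array (SD of the difference at most 3.5e-07 over 39030 probes with 1 spot), and its column medians were -3.53 and -3.45 in Bach2KO and -3.58 and -3.67 in WT.

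From the processed signals, control spots and 109 to 136 outlier spots per array were left out, spots of a probe were averaged as log2, and the 75th percentile over 43020 non-control spots (1036 and 979 in Bach2KO, 1267 and 1513 in WT) was subtracted. No spot was saturated (0 on each array). Between 27125 and 27918 of 39429 probes were well above background on an array. Unversioned accessions were matched to a RefSeq gene table of GRCm38.p6 (26055 probes with 1 symbol, 0 with several, 13374 with none), and the brightest measured probe stood for a gene. Where a gene was not well above background on either array of a genotype, the fold is a lower bound: the dim genotype is set, array by array, to its own signal or to the dimmest signal that passed background there, whichever is higher. The bound also had to reach 2-fold. The number of arrays limits the precision. The 33 members were all described. Of the other lists, up to 4 called genes by size were named, together with Atf4, Ddit3, Atf3 and Siglech. Members and lists were chosen with earlier results of these data known. The call is a rule of size, not a test of the genotypes, and its calculation was checked on simulated data with known differences. Every simulated gene was set as well above background, so the lower bound for dim genes was not checked there. Alternatives used Python 3.11.15 and limma 3.58.1 in R 4.3.3 (normexp with an offset of 50 on median spot signals, quantile normalization).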

Additional observations from a re-analysis of the deposited data

How the results depend on the processing

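The 5 calls among the members, and no lower call, were kept with the deposited value table, with no filter on dim probes, with all 4 arrays required above background, with outlier spots kept, with the mean of a gene's probes, with the 2-fold rule on array means and without each array in turn (5 higher throughout, 0 lower). Between 6.45% and 9.78% of all genes were called higher in these settings. With median scaling 3 members were called (Hspa5, Derl3, Creld2), with normexp the same 3, with quantile normalization 4 (all but Hspa5), at 3-fold 1 (Derl3) and at 1.5-fold 15. Of all genes 7.17%, 5.96%, 7.69%, 4.60% and 14.8% were called higher there, in the same order. With spike-in scaling (9 probes) 1 was higher (Derl3) and 1 lower (Xbp1), against 4.15% of all genes higher and 21.0% lower. The median difference of the members, 0.55, was 0.41 with median scaling, 0.53 with quantile normalization, 0.57 with normexp, 0.58 in the deposited table, 0.52 with no filter and -0.17 with spike-in scaling, which reversed it. Without 1 array it was between 0.54 and 0.56. Over all genes, 1266 higher and 892 lower became 627 and 3175 with spike-in scaling (16.5% of calls higher in place of 58.7%), 2237 and 1933 at 1.5-fold and 695 and 410 at 3-fold; without 1 array they were 1328 to 1490 and 968 to 1035. With median scaling 50.8% of calls were higher. The cause was not tested, except that the thresholds and the shared shift of 0.72 act by construction. No paired analysis was possible because the arrays of a genotype are parts of 1 RNA sample and the results come from no test. Signal over background limits Dnajb11, which was not measured.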
